A study of Mus musculus with 2 samples.

Results

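Candidate 5-formylcytosine (5fC) sites were examined in 5 genes that regulate actin filaments and microtubules, Mical3, Arhgap26, Fscn1, Dbn1 and Camsap3, out of 21883 protein-coding genes. The genes were selected on calls in these same libraries, and each of them held at least 3 cytosines called in both, so their counts and levels describe the choice and were not tested. A site was assigned to a gene when it lay between the start and end of its RefSeq span in mm10 (GRCm38), or within 2 kb on either side. Under this rule the 5 genes held 42 called cytosines, 22 of them in both libraries, of 46677 in all. The samples were 2 libraries of genomic DNA from mouse embryonic stem cells, pluripotent cells grown in culture, labelled replicates 1 and 2 of 1 group. No genotype, strain or treatment is given in the labels, no control library was analysed here, and nothing says that the libraries came from separate cultures. DNA libraries hold no expression values, so the labelled cell type could not be checked against its markers.

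5fC is an intermediate in the removal of DNA methylation. TET enzymes oxidise 5-methylcytosine stepwise to 5-hydroxymethylcytosine, 5fC and 5-carboxylcytosine, and the glycosylase TDG cuts out the last of these forms together with 5fC, so that repair restores cytosine. Because methylation in mammals sits mainly at CG dinucleotides, CG is the context in which 5fC is best known. In CLED-seq, sheared DNA carrying 5fC is tagged with biotin at the formyl group and captured on streptavidin beads. The deaminase A3A then converts cytosine, 5-methylcytosine and 5-hydroxymethylcytosine so that they are no longer read as C, while tagged 5fC resists. The level used below is the percentage of reads at a position that still read C. It is a share of captured fragments and not a share of genomic copies, and a cytosine that A3A failed to convert gives the same reading.

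The sequences around the starts of Fscn1 and Dbn1 are shown because these are the genes in which a shared site lay within 2 kb of a start listed in the RefSeq promoter table. Each window runs from 250 bases before to 50 after that start on the gene's strand (GRCm38.p6), with CG dinucleotides in capitals. The Fscn1 window is chr5:142960105-142960404 on the plus strand, and the Dbn1 window is chr13:55488027-55488326 on the minus strand.
Fscn1: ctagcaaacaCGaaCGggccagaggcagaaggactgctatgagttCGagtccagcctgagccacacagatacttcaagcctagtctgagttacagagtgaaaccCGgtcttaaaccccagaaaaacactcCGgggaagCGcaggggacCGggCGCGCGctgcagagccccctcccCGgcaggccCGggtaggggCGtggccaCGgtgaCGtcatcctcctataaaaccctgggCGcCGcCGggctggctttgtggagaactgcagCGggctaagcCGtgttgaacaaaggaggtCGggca
Dbn1: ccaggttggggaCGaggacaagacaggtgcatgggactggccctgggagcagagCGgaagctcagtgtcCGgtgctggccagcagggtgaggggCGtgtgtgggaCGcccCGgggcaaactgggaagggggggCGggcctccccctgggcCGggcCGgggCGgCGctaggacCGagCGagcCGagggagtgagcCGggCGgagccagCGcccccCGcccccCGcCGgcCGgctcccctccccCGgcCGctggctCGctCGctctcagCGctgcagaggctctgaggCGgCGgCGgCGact
The Fscn1 window held 21 CG dinucleotides, a number reached by 24.8% of 32851 promoter windows in the table, and the Dbn1 window held 30, reached by 11.7% (median 7). In neither window was a cytosine called in either library, and the nearest called positions lay 682 bp from the Fscn1 start and 1875 bp from the Dbn1 start. Only called positions are listed, so whether these CG dinucleotides were covered is not known. The table also lists a pair of starts for Mical3, with no called site in their windows, and none for Arhgap26 or Camsap3.

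The deposited lists held 28569 cytosines in replicate 1 and 29650 in replicate 2, at a depth of 30 reads or more and a median of 34. Summed over its list, each library had 1039807 (replicate 1) or 1078502 (replicate 2) reads, which is not its sequencing depth. In the 5 genes the depth ran from 30 to 51 reads in replicate 1 and from 30 to 90 in replicate 2. Each library listed 32 sites in the 5 genes, and 68.8% of them were also in the other library, against 40.4% of all sites in replicate 1 and 38.9% in replicate 2. Because the genes were selected on calls in these libraries, nothing is read from this higher share. Of the sites called in either library, the share in both ran from 29.4% in Arhgap26 to 100% in Dbn1, beside 24.7% of all called sites. Read counts were identical in the libraries at 18 of the 22 shared sites (81.8%), as at 70.6% of all shared sites. Fisher's exact test (two-sided) found none of the 22 to differ between the libraries, with p = 1 before and after Benjamini-Hochberg adjustment over all 11542 shared sites and none at an unadjusted p under 0.05, and 0.0260% of all shared sites were called different. Over the 11084 shared sites with any lost read, the chi-square of the counts was 0.0611 per degree of freedom, where independent libraries would give about 1. Differences between the libraries were smaller than sampling noise, and the libraries were counted here as 1 sample, so no SD is given. Because Fisher's exact test assumes independent libraries, its lack of differences is not read as agreement between replicates. Whether the libraries hold some of the same reads was not tested, so a site listed in both, or with equal counts in each, is not independent evidence for its level. Intervals given below are 95% Wilson intervals and cover counting error only.

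Of the 22 shared sites, 6 were CG, 3 were CHG (H is any base but G) and 13 were CHH. CG sites made up 27.3% of them, against 8.72% of all shared sites. The 20 member sites listed in 1 library included 0 CG sites, where 7.71% of all sites listed in 1 library were CG. The 6 CG sites lay in Mical3 (3), Arhgap26 (2) and Fscn1 (1), and Dbn1 and Camsap3 had non-CG sites only. As the genes were selected on calls in these libraries, nothing is read from these CG shares. No CG was called on both strands. The median level of shared sites was 55% in both libraries (quartiles 32.4% and 85.2% in replicate 1, 33.1% and 85.2% in replicate 2), beside 50% for all shared sites (31.3% and 79.4%). Levels of at least 80% were found at 7 of the 22 sites (31.8%), against 24.7% of all shared sites in each library. CG sites had a median of 55.1% in replicate 1 and 54.6% in replicate 2, and the 16 non-CG sites 55% in both. Levels ran from 23.1% to 97.1% at CG sites and from 19.6% to 100% at the others, in both libraries. No member site lay in the 13 genomic windows of 10 kb that hold 10 or more called sites in a library.

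**Figure D1:**
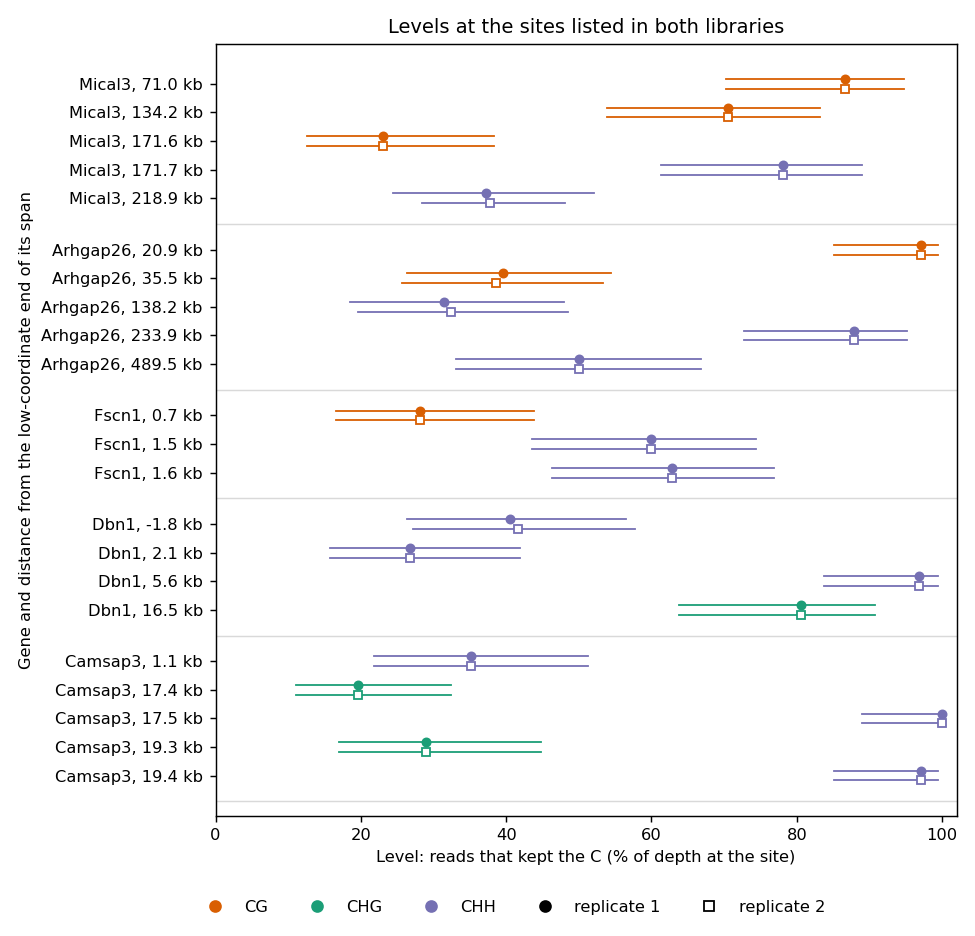
Level (% of reads that kept the C) at the 22 sites listed in both libraries, with 95% Wilson intervals, by gene and distance in kb from the low-coordinate end of the gene. Colours give the sequence context, filled circles replicate 1 and open squares replicate 2, which coincide at most sites, and levels run from 19.6% to 100%, both in Camsap3.

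Mical3 encodes a flavin monooxygenase that oxidises actin and thereby takes filaments apart. It spans 242.2 kb of chromosome 6 (120931546 to 121173757) on the minus strand. It held 10 called sites, 8 in replicate 1 and 7 in replicate 2, and 5 in both. All 10 lay inside the gene and not in its flanks. With 3 shared CG sites it was among the 3 protein-coding genes with at least that many.

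The CG site with the highest level in Mical3, at position 121002557 on the minus strand (CGG), kept the C in 26 of 30 reads in each library (86.7%, interval 70.3 to 94.7). The CG site at 121065763 (plus strand, CGG) kept it in 24 of 34 reads in each (70.6%, 53.8 to 83.2). This position also lies in Gm4651, a long noncoding RNA gene within the Mical3 span. The third CG site, at 121103177 (plus strand, CGT), kept the C in 9 of 39 reads in each library (23.1%, 12.6 to 38.3). The interval of this low site does not overlap those of the other CG sites in the gene.

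Only 96 bp from the low CG site, on the same strand, a CAA cytosine at 121103273 kept the C in 25 of 32 reads in each library (78.1%, 61.2 to 89.0). Neighbouring cytosines thus differed in level by more than their counting error. The fifth shared site, at 121150403 (CTT), also lies in the noncoding gene Gm30842. It kept the C in 16 of 43 reads in replicate 1 (37.2%) and 34 of 90 in replicate 2 (37.8%). The libraries were counted as 1 sample, so these near-equal levels are not independent evidence for the level. The other 5 sites, all outside CG, were listed in 1 library each, at 24.2%, 65.8% and 81.8% in replicate 1 and 71.1% and 34.9% in replicate 2.

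Arhgap26 encodes GRAF1, a GTPase-activating protein that switches off small GTPases and so acts on actin and on membrane remodelling. At 774.7 kb on chromosome 18 (38601617 to 39376285) it is the longest of the 5 genes, and 0.466% of protein-coding genes are as long or longer. It held 17 called sites, 10 in replicate 1 and 12 in replicate 2, all inside the gene. Of the 17, 5 were in both libraries (29.4%), close to the 24.7% of all called sites that were in both.

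Both CG sites of Arhgap26 lay in the first 35.5 kb of its span. The site at 38622561 (minus strand, CGT) kept the C in 33 of 34 reads in each library (97.1%, interval 85.1 to 99.5), the highest level at a member CG site. The site at 38637112 (minus strand, CGA) kept it in 17 of 43 reads in replicate 1 (39.5%, 26.4 to 54.4) and in 17 of 44 in replicate 2 (38.6%, 25.7 to 53.4). The intervals of these CG sites do not overlap in either library.

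The shared non-CG sites of Arhgap26 stood at 31.4% and 32.4% in replicates 1 and 2 (38739815, CCT), at 87.9% in both (38835500, CTA) and at 50% in both (39091077, CTT). The 12 sites listed in 1 library covered 28.1% to 77.4% in replicate 1 and 22.0% to 94.6% in replicate 2. A pair of the replicate 2 sites, at 62.5% and 22.0%, also lies in Fgf1, a growth factor gene inside the Arhgap26 span.

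**Figure D2:**
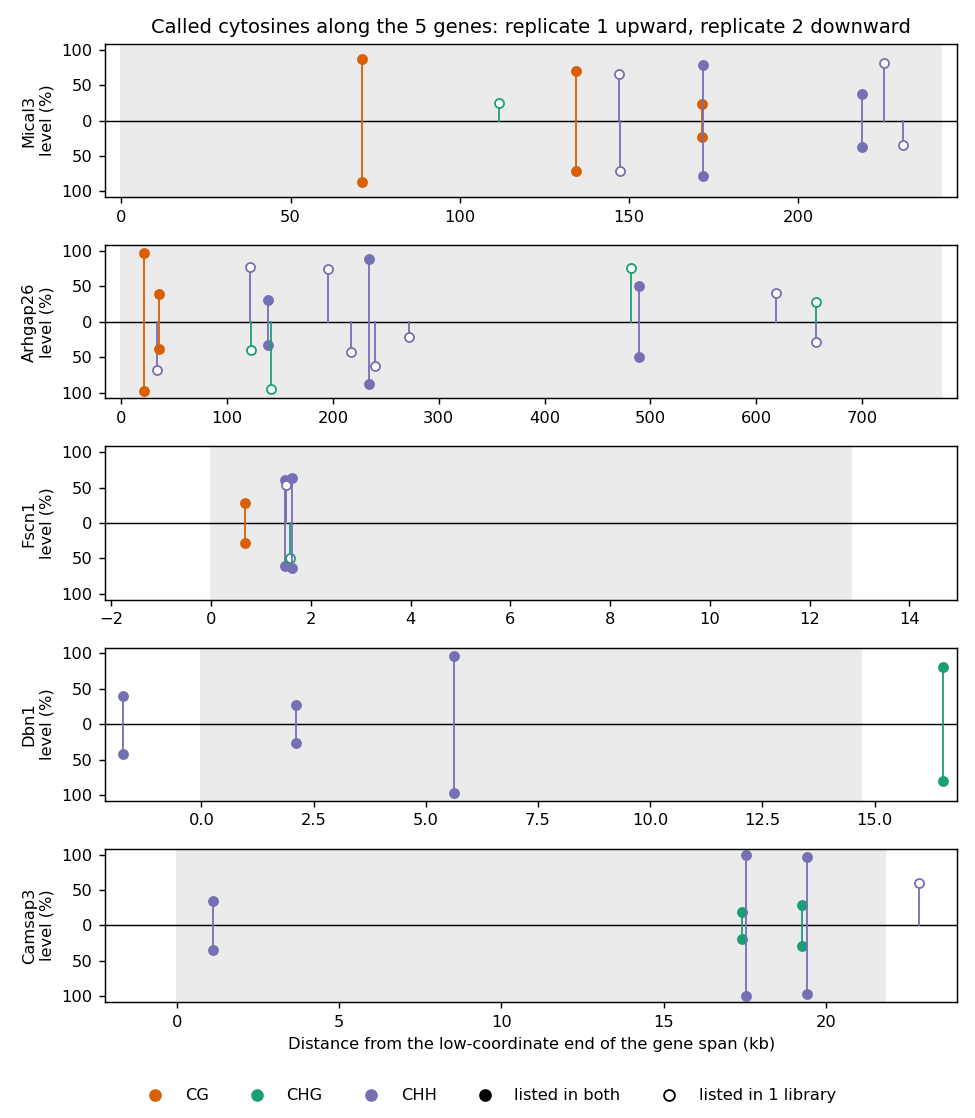
Position and level of every called cytosine in the 5 genes, as distance in kb from the low-coordinate end of the span (grey) with the level in % drawn upward for replicate 1 and downward for replicate 2. Filled points are listed in both libraries and open points in 1, and the 5 Fscn1 sites all lie within 1623 bp of the start of its 12.8 kb span.

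Fscn1 encodes fascin, which bundles actin filaments into the parallel cores of filopodia. It spans 12.8 kb of chromosome 5 (142960355 to 142973189) on the plus strand, and is the shortest of the 5 genes. Its 5 called sites, 4 in each library and 3 in both, all lay between 682 and 1623 bp after the start. Exons and introns were not annotated in the table used here.

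The CG site of Fscn1, at 142961037 (plus strand, CGC), kept the C in 11 of 39 reads in each library (28.2%, interval 16.5 to 43.8). The other 4 sites lay further in, within 146 bp of each other. At 142961832 (plus strand, CTC) the C was kept in 21 of 35 reads (60%, 43.6 to 74.4), and at 142961978 (minus strand, CAC) in 22 of 35 (62.9%, 46.3 to 76.8), in each library. Between them, replicate 1 alone listed 142961854 (18 of 34 reads, 52.9%) and replicate 2 alone listed 142961941 (17 of 34 reads, 50%). The intervals of these 4 sites overlap one another.

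The sites of that kind, listed in 1 library with a counterpart nearby in the other, were also found in the long genes. In Fscn1 the counterparts lay 87 bp apart on the same strand, with kept and lost reads within 1 of each other. In Arhgap26 they lay 116 bp apart on opposite strands (39258319 in replicate 1 and 39258203 in replicate 2), with 9 of 32 reads in each. In Mical3 they lay 96 bp apart on the same strand, at 25 of 38 reads in replicate 1 (121078686) and 27 of 38 in replicate 2 (121078782). The reads of the Mical3 pair were thus not within 1 of each other. How common such pairs are among all sites listed in 1 library was not computed, so their number in these genes is not read as unusual. What produced them was not tested.

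Dbn1 encodes drebrin, which binds along the sides of actin filaments and is best known from the dendritic spines of neurons. It spans 14.7 kb of chromosome 13 (55473428 to 55488126) on the minus strand. All 4 of its sites, flanks included, were listed in both libraries, all lay on the minus strand, and none was CG. Over Mical3, Fscn1 and Dbn1, the members with an annotated strand, 7 of 12 shared sites lay on the gene's strand. Inside the gene, the CAT cytosine at 55479062 kept the C in 30 of 31 reads in each library (96.8%, interval 83.8 to 99.4). The CAC cytosine at 55475547 kept it in 11 of 41 (26.8%, 15.7 to 41.9), so the levels inside this gene lay at opposite ends of the range.

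The other sites counted for Dbn1 lay in its flanks, and without flanks its count fell to 2. At 55489951 (CAG), 1825 bp beyond the end of the span where transcription starts, 25 of 31 reads kept the C in each library (80.6%, 63.7 to 90.8). At 55471677 (CAC), 1751 bp beyond the opposite end and inside the neighbouring gene Prr7, 15 of 37 reads kept the C in replicate 1 (40.5%) and 15 of 36 in replicate 2 (41.7%).

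Camsap3 encodes a protein that binds and stabilises microtubule minus ends that are not anchored at the centrosome, as in epithelial cells. It spans 21.8 kb of chromosome 8 (3587237 to 3609075). It held 6 called sites, 5 of them in both libraries with identical counts, and none in CG. Its highest level, at 3604780 (minus strand, CAA), was 31 of 31 reads in each library (100%, interval 89.0 to 100). Its lowest, 125 bp away at 3604655 (plus strand, CTG), was 10 of 51 (19.6%, 11.0 to 32.5), the lowest level of any member site.

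Another pair in Camsap3 had the same form. The CTC cytosine at 3606651 kept the C in 33 of 34 reads (97.1%, 85.1 to 99.5), and the CTG cytosine 148 bp away at 3606503, on the same strand, in 11 of 38 (28.9%, 17.0 to 44.8). Within each pair the intervals do not overlap. The remaining shared site lay 1.1 kb into the span, at 3588356 (CCT), at 35.1% (13 of 37 reads, 21.8 to 51.2). The site that replicate 1 alone listed, at 60% (24 of 40 reads), lay 1020 bp outside the gene and inside Xab2, a gene of DNA repair and splicing.

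Shared sites were next set against gene length, since long genes offer more cytosines. At least 1 shared site was found in 22.2% of protein-coding genes, a shared CG site in 3.16%, and 3 or more shared sites in 2.00%, and by the choice of members nothing is read from their passing these marks. Among the 6454 protein-coding genes of 10 to 30 kb, the class of Fscn1, Dbn1 and Camsap3, 0.449% held 3 or more and the most was 5, the number in Camsap3. Among the 930 genes of 200 kb to 1 Mb, the class of Mical3 and Arhgap26, 5.48% held 5 or more and the most was 16. Per 10 kb of span with flanks, Dbn1 held 2.14 shared sites, Camsap3 1.94, Fscn1 1.78, Mical3 0.203 and Arhgap26 0.0642. As many or more per 10 kb were found in 0.142%, 0.288% and 0.416% of protein-coding genes for the short members in that order, and in 12.8% for Mical3 and 19.6% for Arhgap26. Of the 4 shared sites of Dbn1, 2 lay in its flanks, so its first place in this order depends on counting flanks. By the choice of members, nothing is read from these densities either.

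**Figure D3:**
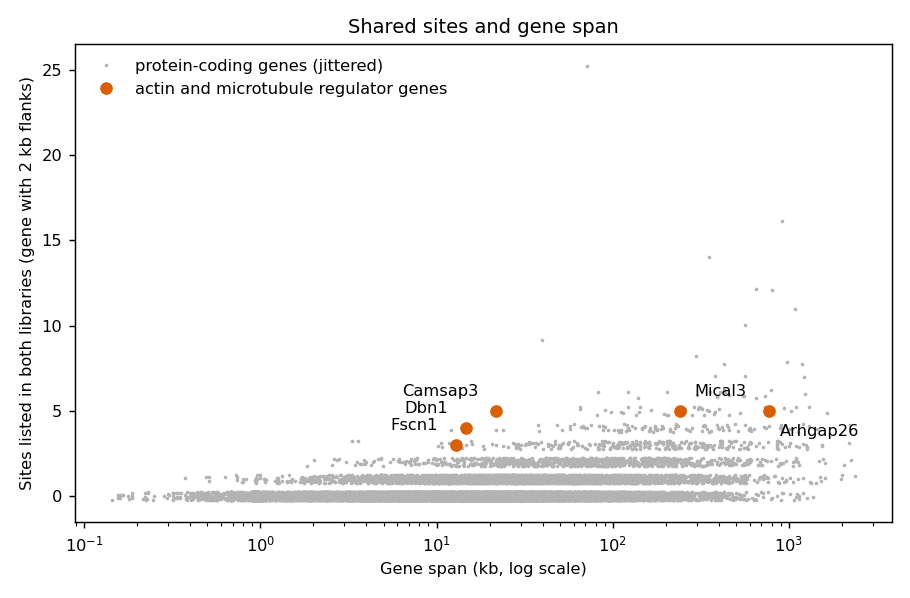
Number of sites listed in both libraries (gene with 2 kb flanks, vertical axis) against gene span in kb (log scale) for 21883 protein-coding genes in grey, jittered vertically, with the 5 genes in orange. Mical3, Arhgap26 and Camsap3 all hold 5 sites although their spans run from 21.8 to 774.7 kb.

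Among other genes of actin and microtubule control, 79 of 200 held a shared site (39.5%, beside 22.2% of all protein-coding genes) and 14 held a shared CG site (7%, beside 3.16%). The median number of shared sites was 0 in these genes and in all protein-coding genes. The listed genes are long, with a median span of 56.9 kb against 17.2 kb. By span, 25% of listed genes under 30 kb held a shared site, against 13.2% of other protein-coding genes of that size. From 30 to 100 kb the shares were 32.5% and 30.6%, from 100 to 300 kb 66.0% and 52.3%, and from 300 kb 58.3% (7 of 12 genes) and 73.7%. The listed genes had the higher share in the classes up to 300 kb and the lower one among the longest genes. A shared CG site was found in 2 of 64, 4 of 77, 6 of 47 and 2 of 12 listed genes in these classes, from the shortest to the longest (3.13%, 5.19%, 12.8% and 16.7%). The shares in other protein-coding genes were 2.05%, 3.86%, 7.13% and 10.5%, lower in each class. These shares were not tested, and nothing particular to cytoskeletal genes is read from them.

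The relatives of the members named here held 0 to 3 shared sites each. In the MICAL family, Mical2, which also oxidises actin, held 3 shared sites with 1 CG site at 50% in both libraries, Micall1 held 1, and Mical1 and Micall2 held none. Of the relatives of Arhgap26, Arhgap10 held 1 and Arhgap42 held none. Among the CAMSAP genes, Camsap1 held 1 CG site (66.7% in replicate 1 and 69.1% in replicate 2) and Camsap2 none.

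Of the 14 genes with a shared CG site, those acting in signalling to actin included Tiam1, which encodes an exchange factor for Rac (6 shared sites, CG level 97.1% in both), Vav2, another exchange factor (5 shared sites, 100% in both), and the kinase gene Cdc42bpa (72.5% and 74.4%, outside the gene in its flank). Among actin-binding proteins were the bundling protein gene Lcp1 (34.4% and 30%), the linker gene Plec (49.0% in both), the pointed-end capping gene Tmod1 (100% in both) and the monomer-binding gene Twf2 (85.3% in both, in its flank). Microtubule plus-end genes had 4 of 18 with a shared CG site, namely Apc (43.8%), Clip1 (24.3%), Dst (83.7%) and the kinesin gene Kif18b (51.1%), each level equal in both libraries. In Mapt, the gene of the microtubule-binding protein tau, the CG site stood at 56.3% in replicate 1 and 58.1% in replicate 2. Of the 35 genes of actin nucleation and elongation, 0 held a shared CG site, beside 3.16% of all protein-coding genes. A shared site outside CG was held by 11 of them (31.4%), beside 22.2% of all protein-coding genes with a shared site of any context. Neither these counts nor that of the plus-end genes were tested, and nothing is read from them.

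**Figure D4:**
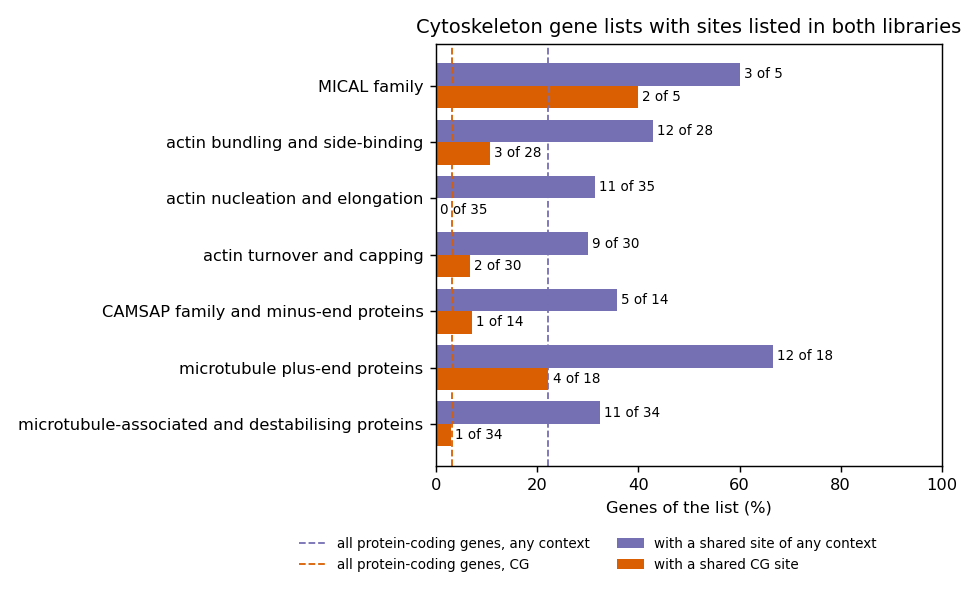
Percentage of genes in cytoskeleton lists that held a site listed in both libraries, of any context (purple bars) or in CG (orange bars), with the members included and counts beside the bars. Dashed lines mark all protein-coding genes, at 22.2% for any context and 3.16% for CG.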

How the data were processed

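Per the labels' protocols, DNA from the stem cells was fragmented, reacted with a biotin probe for 5fC, captured on beads, treated with A3A and then amplified. Tools named in the submitters' processing notes are Bismark 0.23.1, Bowtie2 2.4.5, cutadapt 4.1, FastQC 0.11.9 and SAMtools, beside the build mm10, with no roles stated. Whether duplicate reads were removed was not given in the sources used here. The authors deposited, per called cytosine, raw counts of reads that kept the C, reads that lost it and their sum, per the file headers. They also deposited a p-value with its Holm and Benjamini-Hochberg adjustments, all of the latter under 0.05. That p-value is a binomial point probability at a background of 6.93% and not a tail, and the upper-tail probability kept every member site under the largest listed p. Uncalled cytosines are not in these lists, so low levels are missing.

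A site was called shared when chromosome, position and strand were the same in both libraries, and was matched to genes of the RefSeq GRCm38.p6 table. Shared sites were compared across the genome with Fisher's exact test, which was tried on simulated counts. These counts were drawn independently for the libraries, which the real counts are not like, so the simulation does not show that the test suits these data. No molecular identifiers are described, so PCR copies may be counted more often than their molecules and intervals cover counting error only. Members and gene lists were chosen with earlier results of these data known. From the lists, every gene with a shared CG site, up to 6 per list, was to be named, and span classes, pairs of nearby sites, densities and relatives were added after values were seen. The results of some lists are not reported here. Alternatives changed depth, adjusted p, level, flank, libraries, dense windows, the form of the p and the matching of sites. Python 3.11.15, numpy 2.4.6, pandas 2.3.3, scipy 1.17.1 and matplotlib 3.10.9 were used.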

Additional observations from a re-analysis of the deposited data

How the results depend on the processing

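With a depth of at least 50 in both libraries, 1 of the 22 shared sites remained (19.6%, in Camsap3) and 0 of the 6 CG sites, so the account of these genes rests on positions with fewer than 50 reads in at least 1 library. Under the other alternatives the number of shared sites stayed between 19 and 24, the sites of either library alone numbered 32, the CG sites numbered 5 or 6, and the median level lay between 50% and 62.9%. The upper-tail p and the counting of near-equal partners within 120 bp as shared were chosen after seeing the data, and gave 22 and 24 sites. The share of protein-coding genes with a shared site was 1.01% at a depth of at least 50, 20.7% and 18.8% at an adjusted p under 0.01 and 0.001, 19.7% with no flank, 25.2% with flanks of 5 kb and 27.2% with partners counted. For shared CG sites these shares were 0.206%, 2.90%, 2.55%, 2.63%, 3.53% and 4.25%. With the sites of a library alone, 39.4% and 40.3% of genes held a site and 6.70% and 7.15% a CG site, by construction more than with sites of both. Fisher's exact test called 0 member sites different at an unadjusted p under 0.05, or at a depth of at least 50, where 1 site was tested. It assumes independent libraries here too, so nothing is read from this. No paired analysis was possible because there is 1 group. At about 35 reads a level near 55% has an interval from 38.2% to 69.5%. That is the counting error of 1 site, and the smallest detectable difference between sites was not computed. Whether unconverted cytosine contributes to these calls was not tested, since no control library was analysed here.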
